A study of Arabidopsis thaliana with 12 samples.

Results

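Young Arabidopsis seedlings live on the oil stored in their cotyledons until photosynthesis can feed them. SDP1 (AT5G04040, SUGAR-DEPENDENT1) is a lipase at the surface of the oil body that starts the breakdown of triacylglycerol into free fatty acids. AIM1 (AT4G29010) is a multifunctional enzyme of peroxisomal beta-oxidation, the spiral that shortens fatty acids to acetyl-CoA. ICL (AT3G21720, isocitrate lyase) is a defining enzyme of the glyoxylate cycle, which turns that acetyl-CoA into organic acids from which sugar can be made. SDP1, AIM1 and ICL therefore belong to an early, a middle and a late step of oil use. Each is described here by the 1 probe set that carries its name, and does not stand for its whole step. They are 3 of the 13356 genes with a named probe set, and 3 of the 22746 probe sets tested. They were chosen for their place in the pathway, with earlier results of these data known.

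The study asked how quiescent seedlings respond to sugar and how far that response needs the TOR kinase, a central regulator of growth. The arrays measured total RNA of whole 3-day-old seedlings in 4 groups of 3 arrays each. These were tor seedlings with glucose, tor seedlings without glucose, WT seedlings with glucose and WT seedlings without glucose. The tor seedlings carry an RNAi construct against tor that estradiol switches on, and the WT seedlings are Col-0. All of them grew in liquid 0.5 x MS medium at 22 °C under 75 uE of light with a 12 h photoperiod, and glucose was given at 15 mM for 2 h. The sources used here do not say whether WT seedlings also received estradiol, or whether the tor seedlings come from 1 transgenic line. In comparisons of the genotypes, estradiol and loss of tor cannot be told apart.

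Values are log2 RMA levels of a probe set. They can be compared between arrays for 1 gene but not between genes. In whole seedlings, fewer cells of a type and less RNA per cell cannot be told apart. The labels call the replicates biological, and the p-values rest on the spread among 3 arrays a group, a number that limits the precision. No probe set carries the name of TOR here, so its silencing was not checked. Of the markers of the tissue, 3 of 5 photosynthesis genes were measured, and the log2 of their summed level was 15.0 to 15.1 in tor seedlings with glucose, 14.9 to 15.1 in tor seedlings without, 15.1 to 15.2 in WT seedlings with glucose and 15.1 to 15.3 in WT seedlings without. None of the 8 seed maturation markers has a named probe set here, so the amount of leftover seed RNA was not analysed.

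SDP1 fell in WT seedlings given glucose. Its level was 7.64, 7.32 and 7.18 on WT arrays 1, 2 and 3 with glucose, against 8.63, 9.54 and 9.73 on WT arrays 1, 2 and 3 without it. The groups did not overlap. The log2 change was -1.92 ± 0.35 (SE; 95% interval -2.70 to -1.14; limma, adjusted p = 0.00288), which is 3.78-fold lower. In tor seedlings the level was 7.97, 8.54 and 8.74 with glucose, against 8.18, 9.07 and 9.38 without it. These groups overlapped, and the change of -0.46 ± 0.35 (95% interval -1.24 to 0.32) did not pass (adjusted p = 1.00). The group means were 8.42 ± 0.40 in tor seedlings with glucose, 8.88 ± 0.62 in tor seedlings without, 7.38 ± 0.24 in WT seedlings with glucose and 9.30 ± 0.59 in WT seedlings without (SD, n = 3 each). By level, WT seedlings without glucose stood highest, then tor seedlings without, tor seedlings with glucose and WT seedlings with glucose. Of the neighbours in that order the lowest pair differed, and the other pairs overlapped and did not pass.

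ICL fell in WT seedlings as well. Its level was 11.05, 10.55 and 10.63 on WT arrays 1, 2 and 3 with glucose, against 12.24, 12.50 and 12.54 without it. All arrays with glucose lay more than 1 log2 unit below all arrays without it. The change was -1.68 ± 0.24 (SE; 95% interval -2.20 to -1.16; adjusted p = 0.000666), or 3.21-fold lower. In tor seedlings the ICL level was 11.36, 10.77 and 10.75 with glucose, against 11.84, 11.05 and 11.18 without it. Those ranges overlapped, and the change of -0.40 ± 0.24 (95% interval -0.92 to 0.12) did not pass (adjusted p = 1.00). The means were 10.96 ± 0.35 in tor seedlings with glucose, 11.35 ± 0.42 in tor seedlings without, 10.75 ± 0.27 in WT seedlings with glucose and 12.43 ± 0.16 in WT seedlings without (SD, n = 3 each). Their order was that of SDP1. Here the highest pair of neighbours differed, and the remaining neighbours overlapped and did not pass.

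AIM1 did not pass for glucose in either genotype and was higher in tor than in WT seedlings. Its level was 10.25, 10.68 and 10.95 on tor arrays 1, 2 and 3 with glucose and 9.98, 10.67 and 11.04 without it. In WT seedlings it was 9.26, 9.47 and 9.40 with glucose and 9.30, 9.56 and 9.69 without it. Every tor array lay above every WT array, and how many of all probe sets separate in this way was not counted. The change with glucose was 0.06 ± 0.25 in tor seedlings (SE; 95% interval -0.50 to 0.62; adjusted p = 1.00) and -0.14 ± 0.25 in WT seedlings (95% interval -0.70 to 0.42; adjusted p = 0.785). Both intervals exclude a fall as large as that of SDP1 or ICL in WT seedlings. The group means were 10.63 ± 0.35 in tor seedlings with glucose, 10.56 ± 0.54 in tor seedlings without, 9.38 ± 0.11 in WT seedlings with glucose and 9.52 ± 0.20 in WT seedlings without (SD, n = 3 each). Of the neighbours in level, tor and WT seedlings without glucose differed, while within each genotype the groups overlapped.

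**Figure D1:**
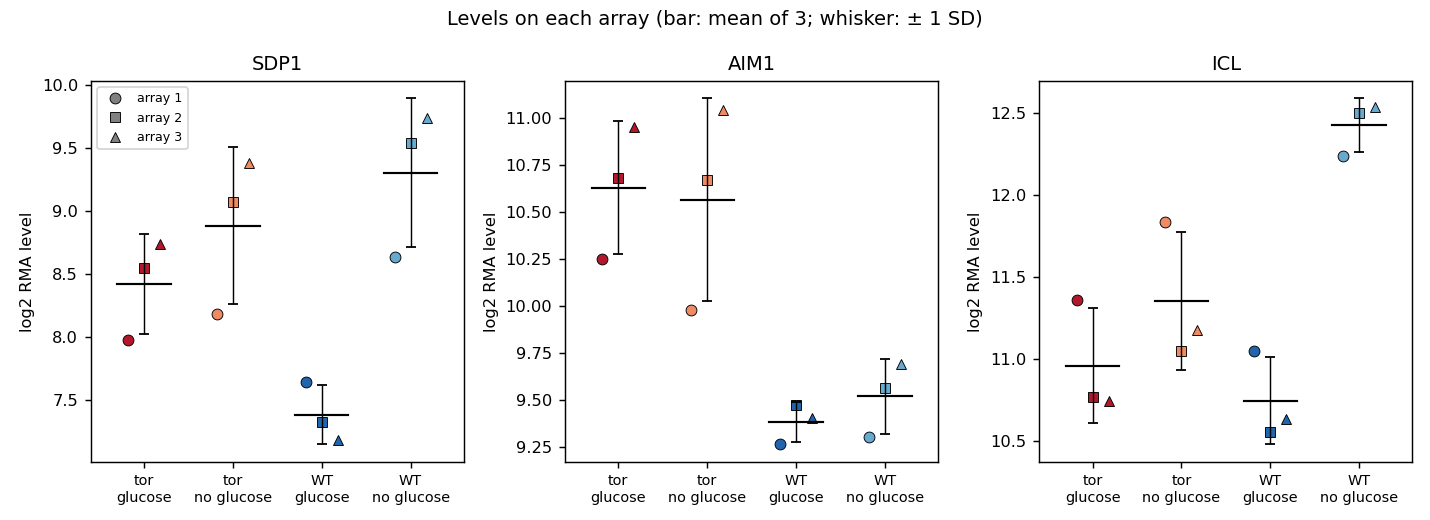
Log2 RMA level of SDP1, AIM1 and ICL on each of the 12 arrays by group, with the mean and ± 1 SD; marker shapes give the array number, and each panel has its own axis, which does not start at 0. SDP1 and ICL are low in WT seedlings with glucose and high in WT seedlings without it, and AIM1 separates tor from WT.

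Set against the whole array, 2 of the 3 genes were called for glucose in WT seedlings (adjusted p under 0.05), where 24.0% of all probe sets were called. Both fell, and 10.5% of all probe sets were called lower. The same 2 genes had no overlap between the groups of 3 arrays, which held for 39.1% of all probe sets. In tor seedlings 0 of the 3 genes were called, and 0.0% of all probe sets. At p under 0.05 before adjustment, limma gave 313 probe sets in tor seedlings. None of the 3 genes was without overlap in tor seedlings, where 5.05% of probe sets were. Ordered by log2 change, SDP1 stood at rank 280 and ICL at rank 391 from the lowest in WT seedlings, so that 1.23% and 1.72% of probe sets lay lower. In tor seedlings they stood at ranks 340 and 473, although neither change passed there. AIM1 lay inside the bulk of the probe sets, with 32.1% lower than it in WT seedlings and 67.8% in tor seedlings.

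**Figure D2:**
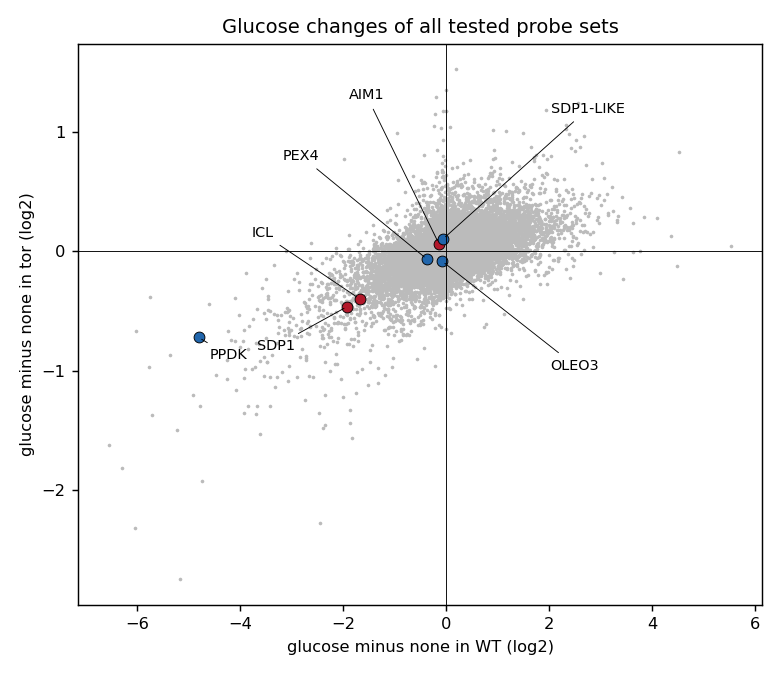
Log2 change with glucose in WT seedlings (horizontal) against that in tor seedlings (vertical) for all tested probe sets (grey; a probe set with a missing value is included from its remaining arrays), with SDP1, AIM1 and ICL in red and the other named pathway genes in blue. The axes differ in scale. SDP1 (-1.92 in WT, -0.46 in tor) and ICL (-1.68 in WT, -0.40 in tor) lie close together at the lower left, PPDK lies farther left, and AIM1 lies near the origin.

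Whether the 2 genotypes answered glucose differently was tested as the difference of the changes, tor minus WT. For ICL it was 1.28 ± 0.33 (SE; 95% interval 0.55 to 2.02; adjusted p = 0.0516), and for SDP1 it was 1.46 ± 0.50 (95% interval 0.36 to 2.56; adjusted p = 0.125). For AIM1 it was 0.20 ± 0.36 (95% interval -0.59 to 1.00; adjusted p = 0.857). Of the 3 genes, 0 were called in this fit, in which 5.36% of probe sets were. Over all probe sets, arrays of the same number deviated together across the groups. The fit with the replicate number as a block therefore stands beside the fit without it. With the block 2 of the 3 were called, ICL at adjusted p = 0.0147 and SDP1 at adjusted p = 0.0353, where 13.4% of all probe sets were called, and AIM1 was not (adjusted p = 0.636). ICL also passed when the arrays were centred on their medians (1.35, adjusted p = 0.0355), while SDP1 did not pass under that setting (1.52, adjusted p = 0.110). Leaving out array 1 of WT with glucose, of WT without glucose or of tor without glucose also brought ICL past the threshold (adjusted p = 0.0363, 0.0474 and 0.0264). Leaving out array 1 of WT without glucose did so for SDP1 (1.79, adjusted p = 0.0425).

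The same-numbered pairs show the size of this difference. The change of SDP1 with glucose was -0.21, -0.53 and -0.65 in tor pairs 1, 2 and 3, against -0.99, -2.22 and -2.55 in the WT pairs. It was lower in every pair of both genotypes, and each WT pair moved farther than any tor pair. For ICL the changes were -0.47, -0.28 and -0.43 in the tor pairs, against -1.19, -1.95 and -1.90 in the WT pairs. Again all pairs were lower with glucose and the genotypes did not overlap. How many of all probe sets show such a separation of pairs was not counted, so it is no further support for a difference. The fit without a block leaves the pairing in its error. In WT seedlings, however, array 1 of SDP1 deviated from its group mean by 0.26 with glucose and by -0.67 without it. For ICL these deviations were 0.30 and -0.19. A common shift per array number, as the block assumes, thus does not hold for these genes in WT seedlings. In tor seedlings neither gene was called under any alternative run, the lowest limma adjusted p being 0.167 for SDP1 and 0.155 for ICL. The mean change in tor seedlings amounted to 24.0% of that in WT seedlings for SDP1 and to 23.6% for ICL. These shares move with single arrays, since leaving out 1 array gave a mean change in tor seedlings of -0.81 to -0.21 for SDP1 and of -0.60 to -0.15 for ICL. For AIM1 the pairs gave 0.27, 0.01 and -0.09 in tor seedlings, against -0.04, -0.09 and -0.28 in WT seedlings, with no common direction in tor.

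**Figure D3:**
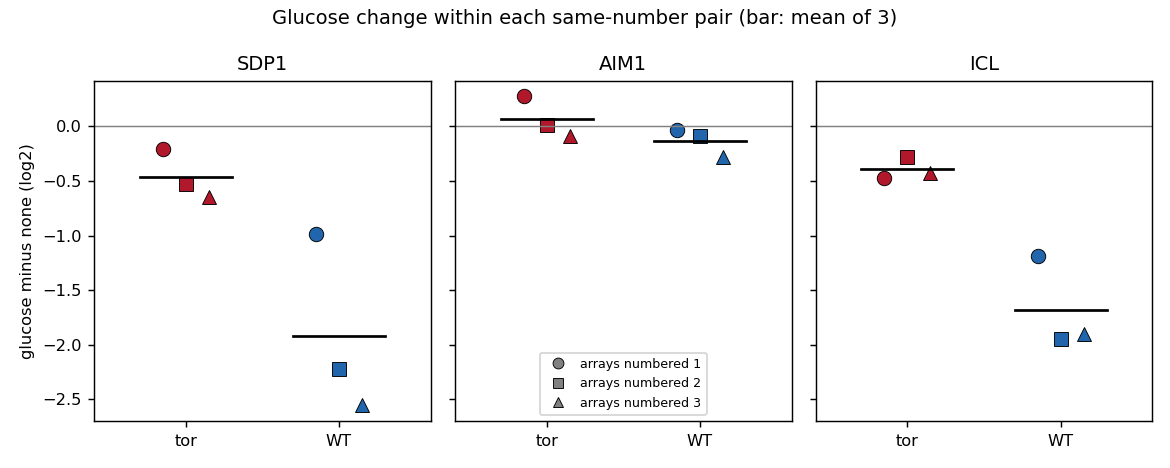
Change with glucose (log2, glucose minus none) within each pair of arrays of the same number in tor (left) and WT (right) seedlings for SDP1, AIM1 and ICL; bars are means of 3 pairs. For SDP1 and ICL all pairs lie below 0 and all WT pairs lie below all tor pairs, while the AIM1 pairs lie around 0.

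Compared between genotypes without glucose, AIM1 was higher and ICL lower in tor seedlings. AIM1 differed by 1.05 ± 0.25 (SE; 95% interval 0.48 to 1.61; adjusted p = 0.0115), a 2.06-fold higher level. ICL differed by -1.07 ± 0.24 (95% interval -1.59 to -0.55; adjusted p = 0.00711), a 2.10-fold lower level. SDP1 differed by -0.42 ± 0.35 (95% interval -1.20 to 0.36; adjusted p = 0.408; 0.250 with the replicate block), and its groups overlapped. Within the same-numbered pairs SDP1 was lower in tor seedlings in 3 of 3 (log2 differences of -0.45, -0.47 and -0.35). In this comparison 28.2% of all probe sets were called, 19.5% higher and 8.66% lower in tor seedlings. The 2 called genes also had no overlap between the groups, as did 41.5% of probe sets. Of the calls over all probe sets, 69.3% were higher in tor seedlings, and 33.0% once every array was centred on its median, which takes off a shift of 0.24. That shift exceeds the median change over all probe sets (0.08), so centring moves the balance toward lower calls. With quantile normalization 50.7% of the calls were higher. With centring AIM1 was still called higher (0.80, adjusted p = 0.0407) and ICL still called lower (-1.31).

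With glucose, SDP1 and AIM1 were higher in tor seedlings. AIM1 differed by 1.25 ± 0.25 (SE; 95% interval 0.69 to 1.81; adjusted p = 0.00304), a 2.38-fold higher level. SDP1 differed by 1.04 ± 0.35 (95% interval 0.26 to 1.82; adjusted p = 0.0370), a 2.05-fold higher level, and its groups did not overlap. ICL, which was lower in tor seedlings without glucose, differed by 0.21 ± 0.24 (95% interval -0.31 to 0.73; adjusted p = 0.504) and overlapped between the genotypes. Over all probe sets 41.4% were called and 25.4% were called higher in tor seedlings, and 53.4% had no overlap. Higher calls made up 61.3% of all calls, and 41.9% after centring, which takes off a shift of 0.18 where the median change was 0.08. With quantile normalization they made up 49.5%. AIM1 kept its call with centring (1.07), but SDP1 lost it (0.86, adjusted p = 0.0740). The SDP1 call was also lost without WT glucose array 2 or 3 (adjusted p = 0.0899 and 0.107) and without tor glucose array 2 or 3 (adjusted p = 0.101 and 0.123).

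**Figure D4:**
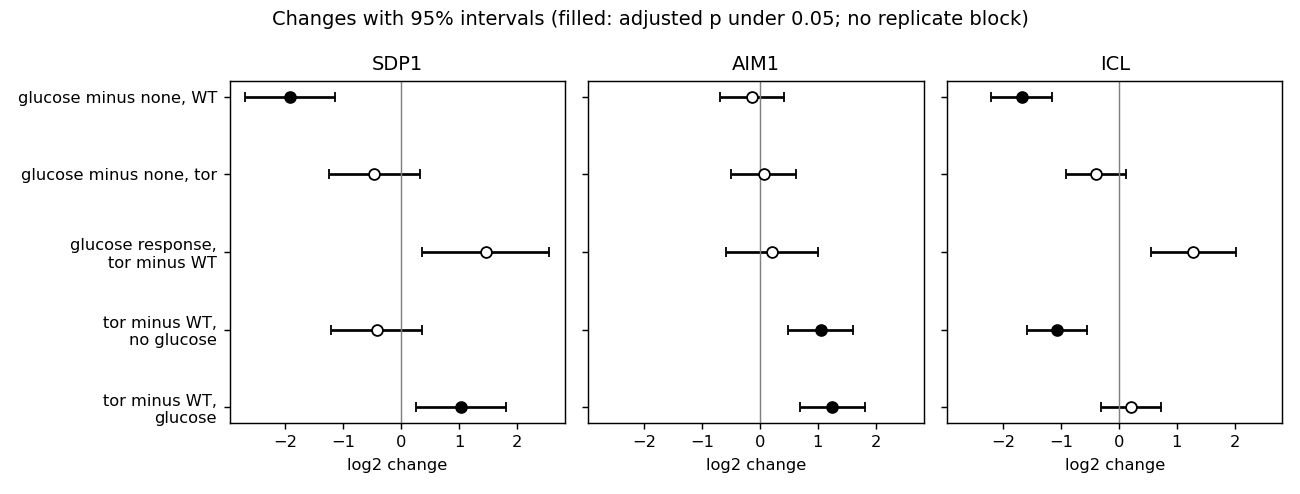
Log2 changes of SDP1, AIM1 and ICL with 95% intervals in the 5 comparisons, from the fit without a replicate block; filled points have an adjusted p under 0.05. SDP1 and ICL are filled below 0 for glucose in WT, AIM1 is filled above 0 in both comparisons of tor with WT, ICL below 0 without glucose and SDP1 above 0 with it, and no gene is filled for glucose in tor or for the difference of responses.

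Other tissue markers also differed between the genotypes. Of 4 root hair genes 2 were measured, and the log2 of their summed level was 6.03 to 6.13 in tor seedlings with glucose and 6.15 to 6.23 in tor seedlings without, against 7.36 to 7.88 in WT seedlings with glucose and 6.86 to 7.94 in WT seedlings without. EXPA7, a root hair expansin, was lower in tor seedlings both without glucose (-2.01 ± 0.26, adjusted p = 0.000394) and with it (-2.20 ± 0.26, adjusted p = 0.000154). Its level in tor seedlings was below 5, where probe sets are dim. EXPA18, the other root hair expansin measured, did not pass without glucose (0.33 ± 0.25, adjusted p = 0.368) and was lower in tor seedlings with it (-0.71 ± 0.25, adjusted p = 0.0458). EXPA18 rose with glucose in WT seedlings (0.85 ± 0.25, adjusted p = 0.0330), a call lost with centring (adjusted p = 0.0577). Among the photosynthesis genes, RCA, the activase of Rubisco, was lower in tor seedlings without glucose (-0.51 ± 0.09, adjusted p = 0.00238) and with it (-0.51 ± 0.09, adjusted p = 0.00155). LHCB4.2, a light-harvesting protein of photosystem II, was higher in them without glucose (0.70 ± 0.22, adjusted p = 0.0356), a call lost with centring (0.46, adjusted p = 0.114). With glucose it was also higher (0.80 ± 0.22, adjusted p = 0.0143) and passed with centring too (0.62, adjusted p = 0.0356). LHCB4.1, its close relative, did not pass in either comparison (adjusted p = 0.125 and 0.586) but was lower in tor seedlings in both once arrays were centred (-0.44 and -0.24, adjusted p = 0.00466 and 0.0477). The part of these differences in those of AIM1, ICL and SDP1 was not tested.

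The array number moved with the level of all 3 genes. For AIM1 array 1 was the lowest of its 3 arrays in all 4 groups. For SDP1 array 1 was the lowest in both tor groups and in WT seedlings without glucose, and the highest in WT seedlings with glucose. For ICL array 1 was the highest in both tor groups and in WT seedlings with glucose, and the lowest in WT seedlings without glucose. Without the 4 arrays numbered 1, a setting chosen after the data were seen, the difference of responses was 1.80 for SDP1 (adjusted p = 0.00322) and 1.57 for ICL (adjusted p = 0.00191). The sources used here do not say what the numbers stand for, and their part in the result was not tested.

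Of 42 genes of oil breakdown, the glyoxylate cycle and gluconeogenesis, peroxisome biogenesis and the oil body coat, 7 have a named probe set. They are SDP1, AIM1, ICL, SDP1-LIKE, PPDK, PEX4 and OLEO3, so most steps of the pathway were not analysed here. In WT seedlings 0 of the 7 rose with glucose and 3 fell, with a median log2 change of -0.37, against -0.01 over all probe sets. The 3 were SDP1, ICL and PPDK. Of all 22746 probe sets, 3077 were called higher and 2377 (10.5%) lower. With the replicate block 4 of the 7 fell, PEX4 being the addition, and 3419 of all probe sets. In tor seedlings 0 of the 7 were called, and 0.0% of all probe sets. The median of the 7 was -0.08, against 0.01 over all probe sets. Without glucose, 1 was higher and 1 lower in tor than in WT seedlings (median -0.03, against 0.08 over all probe sets), where 19.5% of all probe sets were called higher and 8.66% lower. With centring PEX4 was called lower there as well (-0.38, adjusted p = 0.0287). With glucose, 3 were higher and 0 lower in tor seedlings (median 0.31, against 0.08), where 25.4% of all probe sets were called higher. With centring or quantile normalization, or without array 2 or 3 of either glucose group, 2 were called, SDP1 being the one lost.

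PPDK, pyruvate orthophosphate dikinase, makes phosphoenolpyruvate from pyruvate and so serves gluconeogenesis next to the ICL route. Its level was 9.64, 11.12 and 11.58 in tor seedlings with glucose and 9.89, 12.27 and 12.34 in tor seedlings without. In WT seedlings it was 6.73, 6.74 and 6.68 with glucose and 10.90, 11.59 and 12.07 without. The WT seedlings with glucose stand far below all other arrays. PPDK fell by 4.81 ± 0.65 on the log2 scale in WT seedlings (SE, adjusted p = 0.000552), rank 12 from the lowest of all probe sets. Its change in tor seedlings was -0.72 ± 0.65 and did not pass. The difference of responses was 4.09 ± 0.92 (adjusted p = 0.0304). That call was lost without array 2 or 3 of WT with glucose, WT without glucose or tor with glucose (adjusted p = 0.0715 to 0.0807). PPDK was 4.06 ± 0.65 higher in tor than in WT seedlings with glucose (adjusted p = 0.000770). Without glucose PPDK differed between the genotypes by -0.02 ± 0.65 (adjusted p = 0.985).

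The other 3 genes moved little. PEX4, the ubiquitin-conjugating enzyme with which peroxisomes recycle their import receptor, changed by -0.37 ± 0.13 with glucose in WT seedlings. It did not pass without the block (adjusted p = 0.0579) and passed with it (adjusted p = 0.0211), after centring (adjusted p = 0.0153) and without array 1 of tor with glucose (adjusted p = 0.0487). In tor seedlings PEX4 changed by -0.06 ± 0.13. SDP1-LIKE, the closest relative of SDP1 and also a lipase, lay between 3.61 and 3.96 on all arrays, and OLEO3, an oleosin that coats oil bodies, lay between 3.82 and 4.54. Both are below 5, the level of dim probe sets, so a change of these genes may not be measurable here.

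**Figure D5:**
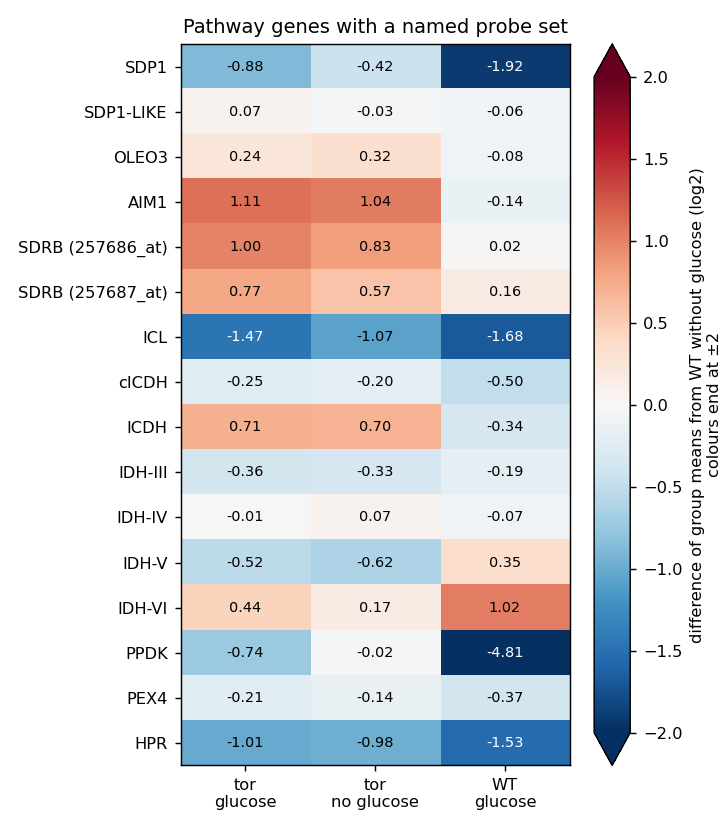
Difference of each group's mean log2 level from that of WT seedlings without glucose for 15 genes (16 probe sets) of oil use, isocitrate metabolism and the peroxisome; rows are probe sets, columns are the other 3 groups, and colours end at a difference of 2 in size. PPDK, SDP1, ICL and HPR fall farthest in WT seedlings with glucose. AIM1, SDRB, ICDH, IDH-VI and OLEO3 are higher in both tor groups than in WT seedlings without glucose. IDH-VI is highest in WT seedlings with glucose. ICL, SDP1, PPDK, PEX4, HPR, cICDH and IDH-III are lower in all 3 groups, some by little.

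Isocitrate, the substrate of ICL, is also used by the isocitrate dehydrogenases, whose probe sets were added after their names were seen. These are the cytosolic NADP enzyme cICDH, the peroxisomal NADP enzyme ICDH and the mitochondrial NAD enzyme subunits IDH-III, IDH-IV, IDH-V and IDH-VI. With glucose in WT seedlings cICDH fell (-0.50 ± 0.12, adjusted p = 0.0133) as ICL did, whereas IDH-VI rose (1.02 ± 0.20, adjusted p = 0.00409). IDH-V changed by 0.35 ± 0.12 in WT seedlings and passed only with the replicate block (adjusted p = 0.0616 without it and 0.0132 with it). IDH-VI stood at 8.94, 8.47 and 8.73 in WT seedlings with glucose, against 8.01, 7.60 and 7.46 without. None of these dehydrogenase genes was called for glucose in tor seedlings, where 0.0% of all probe sets were called. The difference of responses for IDH-VI was -0.75 ± 0.28, called with the block (adjusted p = 0.0275) and not without it (adjusted p = 0.165). ICDH was higher in tor seedlings without glucose (0.70 ± 0.15, adjusted p = 0.00730) and with it (1.05 ± 0.15, adjusted p = 0.000500), as AIM1 was, though the call without glucose was lost with centring (0.46, adjusted p = 0.0603). IDH-V was lower in tor seedlings without glucose (-0.62 ± 0.12, adjusted p = 0.00413) and with it (-0.88 ± 0.12, adjusted p = 0.000399). IDH-VI did not pass between the genotypes without glucose (0.17 ± 0.20, adjusted p = 0.573). With glucose it was lower in tor than in WT seedlings (-0.58 ± 0.20, adjusted p = 0.0389).

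A pair of further peroxisomal genes was also added after their names were seen. SDRB, a short-chain dehydrogenase-reductase that helps to oxidise unsaturated fatty acids, has 2 probe sets. Both were higher in tor seedlings, by 0.83 ± 0.20 and 0.57 ± 0.13 without glucose (adjusted p = 0.0113 and 0.0100) and by 0.97 ± 0.20 and 0.60 ± 0.13 with it (adjusted p = 0.00324 and 0.00495). Neither was called for glucose in either genotype, where 24.0% of all probe sets were called in WT and 0.0% in tor seedlings. With centring the calls without glucose were lost (0.59 and 0.33, adjusted p = 0.0516 and 0.119). HPR, the hydroxypyruvate reductase of photorespiration, fell with glucose in WT seedlings (-1.53 ± 0.32, adjusted p = 0.00528). HPR was also lower in tor seedlings without glucose (-0.98 ± 0.32, adjusted p = 0.0398). Its change with glucose was -0.03 ± 0.32 in tor seedlings, and the difference of responses was called with the block (adjusted p = 0.0202) and not without it (adjusted p = 0.0795). Its level spread widely in WT seedlings with glucose, at 12.43, 11.60 and 10.79, against 13.32, 13.10 and 12.99 without.

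The genes with the most similar levels over the 12 arrays differed between the 3 genes. Likeness was measured by Pearson's r among the 13513 probe sets that carry 1 gene, and the arrays share their groups, so r describes the group pattern as well. The genes were picked on these same arrays, so their calls largely follow from the choice and are no further support for the 3 genes. SDP1 was most like MCCB (r = 0.985), a subunit of the methylcrotonyl-CoA carboxylase of leucine breakdown, followed by AT5G05140, AT1G28260, AT1G05340 and AT1G21680 (r = 0.979 to 0.984). MCCB averaged 10.26 ± 0.50 in tor seedlings with glucose, 11.12 ± 0.94 in tor seedlings without, 8.63 ± 0.38 in WT seedlings with glucose and 12.01 ± 0.72 in WT seedlings without (SD, n = 3 each), the same order of groups as SDP1. Its difference of responses was 2.51 ± 0.68, called with the block (adjusted p = 0.0187) and not without it (adjusted p = 0.0588). The closest to AIM1 were AT4G28940, AT2G13290, AT1G65690, AT3G09100 and AT5G23110 (r = 0.988 to 0.991). All 5 were called higher in tor seedlings both without and with glucose, by 0.59 to 2.74 without it. Of all probe sets, 19.5% were called higher without glucose and 25.4% with it. With centring AT5G23110 lost both calls and AT2G13290 the one without glucose. The closest to ICL were AT2G26500, AT5G23380, AT1G12070, NET3A and AT1G06700 (r = 0.954 to 0.972). All 5 fell with glucose in WT seedlings, by 0.35 to 1.87 on the log2 scale, where 10.5% of all probe sets were called lower. Among the 3 genes themselves, r was 0.62 between SDP1 and ICL, 0.41 between SDP1 and AIM1 and -0.33 between AIM1 and ICL.

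In the authors' deposited table, dChip put the log2 fold change with glucose in tor seedlings at -0.4 for SDP1, 0.0 for AIM1 and -0.4 for ICL. In the authors' deposited table for WT seedlings, dChip gave -2.0 for SDP1, -0.1 for AIM1 and -1.6 for ICL. These values are rounded to 1 decimal by the authors. For the dim genes in WT seedlings, dChip in the authors' deposited table differs in sign from the RMA levels. There dChip gave 0.4 for SDP1-LIKE (adjusted p = 0.0736) and 0.5 for OLEO3 (adjusted p = 0.00208) with glucose in WT seedlings, against changes of -0.06 and -0.08 in the RMA levels. The RMA fold changes in the same deposited table are -0.1 for both. The dChip p-values were adjusted here by Benjamini-Hochberg from those of the authors.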

How the data were processed

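Total RNA of 12 seedling samples was hybridised to expression arrays. The authors' level per probe set is an RMA value on the log2 scale, per the submitters' processing notes. The sources used here do not say which RMA version was used or whether all arrays were normalized together. Further deposited tables hold, per the file headers, log2 fold changes and p-values from dChip and RMA. Of 22810 probe sets, 64 controls were left out. Of the 22746 tested, 13513 carry 1 gene, 503 several and 8730 none in the tables used. One mean per group was fitted with limma 3.58.1 in R 4.3.3 (lmFit, eBayes, 8 residual degrees of freedom before moderation), two-sided, with Benjamini-Hochberg adjustment over all probe sets tested in a comparison and calls at adjusted p under 0.05. Over all probe sets, deviations from group means correlated at 0.199 to 0.863 in the 18 pairs of arrays with the same number, and 12 of 12 arrays correlated best with their own number, so the numbers were taken to pair the samples and the blocked value is given where it changes a call. Alternatives were a replicate block (overall or within genotype), median centring, quantile normalization, a level of at least 5, eBayes with trend, each genotype alone, the authors' dChip values and leaving out arrays. Named are SDP1, AIM1 and ICL, all listed pathway genes with a named probe set and, for each of the 3, the 5 genes of highest correlation. Isocitrate dehydrogenases, HPR, SDRB and tissue markers are named beside these. The genes and lists were chosen with earlier results of these data known.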

Additional observations from a re-analysis of the deposited data

Results flagged for a closer look

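With a replicate block, 13 of the 36 probe sets named above were called by limma for the difference of glucose responses, tor minus WT. Over all probe sets 13.4% were called. Without the block the difference was called for 4 of the 36, where 5.36% of all probe sets were called. It was 4.09 for PPDK (adjusted p = 0.0304), with a change of -0.72 in tor and -4.81 in WT seedlings. It was 2.49 for AT1G21680 (adjusted p = 0.0453), with -0.65 in tor and -3.14 in WT seedlings. It was 1.63 for AT5G23380 (adjusted p = 0.0271), with -0.24 in tor and -1.87 in WT seedlings. It was 0.82 for AT1G06700 (adjusted p = 0.0356), with 0.01 in tor and -0.81 in WT seedlings. With the block a further 9 were called: SDP1 (adjusted p = 0.0353), ICL (0.0147), HPR (0.0202), IDH-VI (0.0275), MCCB (0.0187), AT5G05140 (0.0189), AT1G28260 (0.0133), AT1G05340 (0.0438) and AT1G12070 (0.0289). AT1G05340 was also called higher in tor than in WT seedlings with glucose only with the block (adjusted p = 0.0244, against 0.0842). MCCB and the genes given by locus were picked for their likeness to SDP1 or ICL, so they are no further support for those genes.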

How the results depend on the processing

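Over 15 results of SDP1, AIM1 and ICL, 279 of 297 alternative values stayed on the same side of the threshold. The exceptions were the differences of responses and SDP1 between genotypes with glucose. With a replicate block, overall and within genotype alike, the difference of responses passed at 1.46 for SDP1 and 1.28 for ICL. ICL also passed after centring (1.35) and among probe sets with a level of at least 5 (1.28). Without the 4 arrays numbered 1 the differences were 1.80 and 1.57. Leaving out 1 array gave 1.11 to 1.79 for SDP1, called without WT array 1 without glucose, and 1.08 to 1.53 for ICL, called without array 1 of WT with glucose (1.44), WT without glucose (1.38) or tor without glucose (1.53). SDP1 in tor against WT with glucose was not called after centring (0.86) or quantile normalization (0.87), and leaving out 1 array gave 0.88 to 1.26. The change of AIM1 in tor seedlings, never called, lay between -0.23 and 0.30.

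For glucose in WT, the block within genotype called 8903 probe sets. For glucose in tor, the tor arrays alone with a replicate block called 20, and dropping the arrays numbered 1 called 2. The difference of responses was called for 1206 probe sets with centring and for 1279 of those passing the level filter. It was called for 3043 probe sets with the block, 4555 with the block within genotype, 2936 without the arrays numbered 1 and 477 to 1828 with 1 array left out. Of the 7 pathway genes it was called for 2 with centring or the level filter, for 3 with either block or without the arrays numbered 1, and for 0 to 3 with 1 array left out. In the authors' deposited table, by dChip, OLEO3 rose by 0.5 with glucose in WT seedlings, against -0.08. The cause of these changes was not tested. RMA levels below 5 give no firm change for SDP1-LIKE and OLEO3.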
